A study of Drosophila melanogaster with 2 samples.

Results

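The loci described here are 484 unannotated intergenic transcription units of Drosophila melanogaster that contain at least 1 spliced transcript, out of 19391 loci with a value in the deposited expression table. They were chosen by 3 criteria. The locus had to carry an assembled name (XLOC) in place of a FlyBase gene, all of its transcript models had to carry the class code for intergenic position, and at least 1 model had to hold 2 or more exons. Loci on the unplaced scaffolds U and Uextra were left out. These criteria use no expression value, although the choice was made with earlier results of these data known.

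Expression was measured in 2 RNA-seq libraries of whole adult flies aged 3 to 5 days, 1 of females and 1 of males. Each was made from polyadenylated RNA of 192 lines of the DGRP, a panel of inbred, wild-derived strains, with 200 ng of total RNA from each line pooled before sequencing. Both were reared on the same cornmeal medium, and the labels name no treatment. With 1 library per sex there is no replicate error, so no difference below has a test or a p-value, and every value describes these libraries.

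Intergenic transcripts with introns include long noncoding RNAs, which are spliced and polyadenylated like messenger RNAs but are not known to encode a protein, and genes for short proteins that an annotation has not yet recorded. An intron gives an assembled model a strand, because the splice sites at its ends are not symmetric. In flies, as in other animals, testis is known for transcribing many such loci, often at low level and in no other tissue.

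The marker genes with a value were higher in the library of the matching sex, grk only slightly. The 3 yolk protein genes had 1863 to 4160 FPKM (fragments per kilobase of transcript and 1e6 fragments) in females and 97.7 to 189 FPKM in males. The 4 female germline markers had 19.3 to 579 FPKM in females and 0.784 to 14.7 FPKM in males. Among them, grk was at 19.3 FPKM in females and 14.7 FPKM in males. The 5 testis markers had 0.0185 to 14.8 FPKM in females and 4.99 to 1391 FPKM in males. For 3 accessory gland markers, levels were 0.380 to 0.594 FPKM in females and 588 to 727 FPKM in males, and another, SP, had no value under that name. The male RNAs roX1 and roX2 had 0.0329 to 1.68 FPKM in females and 16.2 to 228 FPKM in males. Of Y-linked genes, 3 had 0.00240 to 0.00824 FPKM in females and 2.38 to 4.02 FPKM in males. Whole-fly RNA does not tell fewer cells of a type from less RNA per cell.

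Most of the multi-exon intergenic loci were simple. In 392 of the 484 (81.0%) the transcript with the most exons had 2, in 70 it had 3, in 16 it had 4, in 5 it had 5 and in 1 it had 6. A single transcript model was given for 256 loci, 2 models for 168, and 3 to 5 models for the rest. In 321 loci every model was spliced, and the other 163 also held a single-exon model. All 484 had a strand, 230 plus and 254 minus, whereas 12 of 1350 single-exon intergenic loci had one. Median exonic length was 1111.5 nt, against 890.5 nt in single-exon intergenic loci, 860.5 nt in spliced annotated noncoding RNA genes and 1719 nt in annotated protein-coding genes. Only 7 loci had under 300 nt of exon, a size at which FPKM depends strongly on how effective length is computed.

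Their introns were short, as fly introns usually are. The 484 loci held 710 distinct introns with a median of 85 nt, against 101 nt over 60056 introns of annotated protein-coding genes and 104 nt over 797 introns of spliced annotated noncoding RNA genes. Introns of 51 to 80 nt, the size of the common short intron class of flies, made up 44.5% of those in the multi-exon intergenic loci and 45.0% of those in protein-coding genes. Introns over 1000 nt made up 15.9% in the multi-exon intergenic loci and 21.7% in protein-coding genes. Introns under 40 nt, below the size at which most fly introns are spliced, numbered 6 (0.845%) in the multi-exon intergenic loci and 43 (0.0716%) in protein-coding genes.

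**Figure D1:**
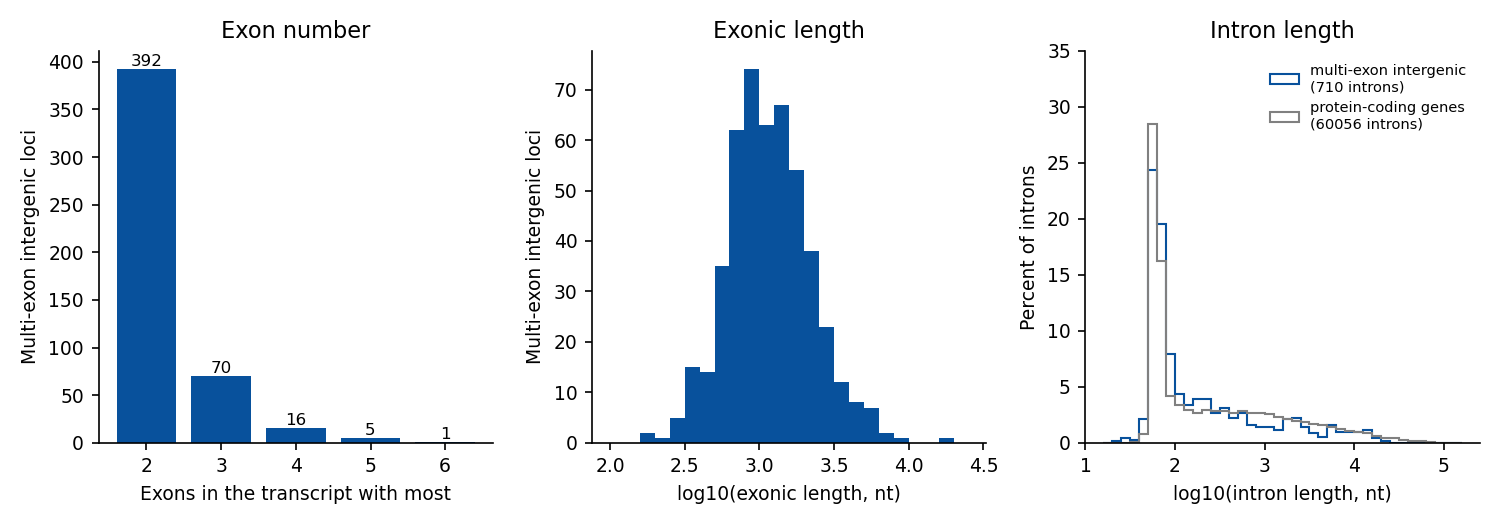
Structure of the 484 multi-exon intergenic loci: exon number of the transcript with the most exons, exonic length on a log10 axis, and the length of their 710 introns on a log10 axis, in percent, beside introns of annotated protein-coding genes. Most loci had 2 exons, and both intron distributions peak in the same short class.

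The most complex models were larger than this. XLOC_002583 (3L, 11834949 to 11838084, plus strand; coordinates throughout are those of the deposited annotation, on build BDGP5 per the submitters' processing notes) had up to 6 exons and was at 0.0454 FPKM in females and 1.87 FPKM in males. XLOC_001400 (2R, 15841195 to 15844389) had up to 5 exons in 2 models, was listed at 0 in females and had 5.41 FPKM in males. XLOC_003000 (3L, 23421981 to 23449852) spread 5 exons with 1115 nt of exon over 27872 nt and was low in both libraries, at 0.0435 FPKM in females and 0.218 FPKM in males. The largest locus by both exon and span was XLOC_004376 (3R, 22564931 to 22596889), with 16627 nt of exon in a span of 31959 nt, 0.00127 FPKM in females and 1.81 FPKM in males. All 4 had the higher value in the male library, but so did 458 of all 484 loci.

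Other loci with many models or a large extent also had low female values. XLOC_003810 (3R, 840030 to 848756) had 5 models and 8299 nt of exon, with 0.943 FPKM in females and 2.11 FPKM in males. XLOC_002601 (3L, 13189998 to 13203656) had 6497 nt of exon, 0.0195 FPKM in females and 1.41 FPKM in males. XLOC_001402 (2R, 15913564 to 15937982) spanned 24419 nt, was listed at 0 in females and had 0.725 FPKM in males. Another 5 models each were given for XLOC_000365, at 0.0735 FPKM in females and 0.475 FPKM in males, and for XLOC_002503, at 0.0564 FPKM in females and 3.79 FPKM in males. None of these 5 reached 1 FPKM in females, a level that only 17 of all 484 loci (3.51%) reached there.

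The multi-exon intergenic loci were low in both libraries and lower in females. Their median level was 0.0174 FPKM in females (quartiles 0 and 0.0769) and 0.657 FPKM in males (quartiles 0.340 and 1.53). At least 1 FPKM was listed for 17 loci (3.51%) in females and 171 (35.3%) in males, with 10 loci at that level in both, 7 in females alone and 161 in males alone. The female library had 198 loci (40.9%) listed at 0 and the male library 1, and none was at 0 in both. No single-exon intergenic locus was at 0 in both either, against 1079 of 15887 annotated genes. The male value was the higher of the pair at 458 of the 484 loci. Summed over the loci, FPKM came to 0.241% of the female and 0.193% of the male total, and nearly all of the female sum was 1 locus: without XLOC_003905 the sums were 80.02 FPKM in females and 642 FPKM in males.

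These levels rest on few fragments in females. A common step in the low values of other loci put 1 fragment at about 0.0129 FPKM for 1 kb of effective length in females and 0.0124 FPKM in males. On that scale the median multi-exon intergenic locus had about 1.34 fragments in females and 54.1 in males, and 3 fragments on 1 kb correspond to 0.0387 FPKM in females and 0.0372 FPKM in males. A listed 0 in females therefore allows a level of that order, and differences between loci within the lower part of the female distribution are not resolved at this depth. The step was only partly recovered, with 222 of 390 checked values in females and 27 of 61 in males within 0.15 of a whole number against 30% by chance, so these fragment numbers are approximate.

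Levels were set beside those of similar loci. Single-exon intergenic loci had medians of 0.0169 FPKM in females and 0.322 FPKM in males, and 1.48% of them reached 1 FPKM in females and 14.4% in males. Spliced annotated noncoding RNA genes, 404 in number, had medians of 0.148 FPKM in females and 2.24 FPKM in males, and 26.7% reached 1 FPKM in females and 68.1% in males. In females the multi-exon intergenic loci thus lay beside the single-exon ones, and in males between the single-exon ones and the annotated noncoding RNAs. The male value was the higher one at 1211 of 1350 single-exon intergenic loci and 314 of 404 spliced annotated noncoding RNA genes. How the models were assembled, and from which reads, is not given in the sources used here, and the part of assembly in these distributions was not tested.

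**Figure D2:**
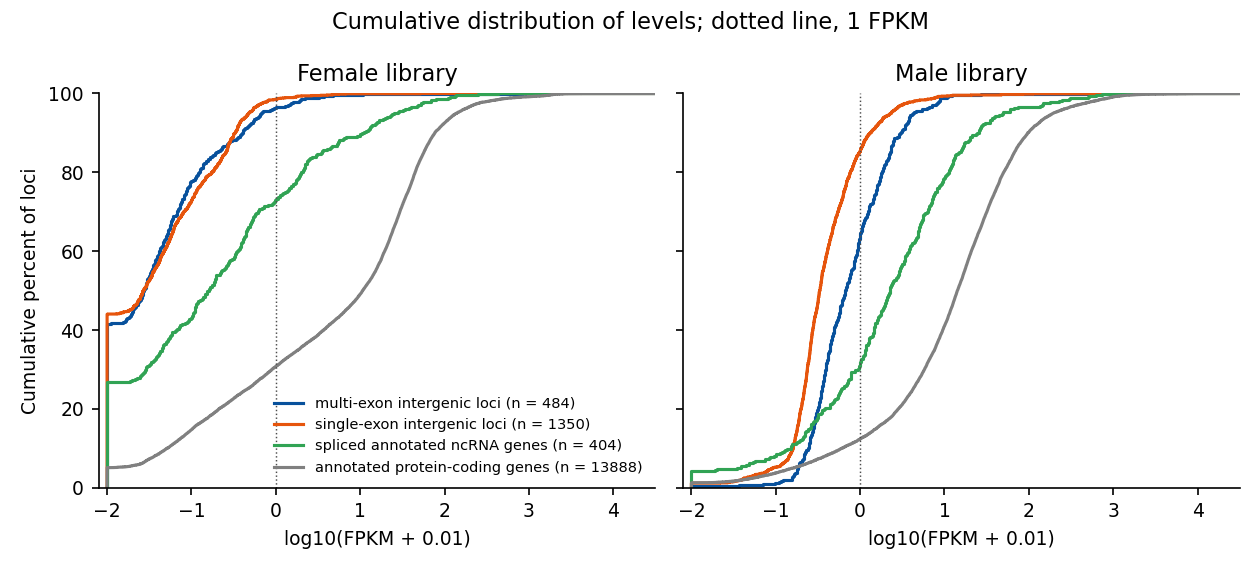
Cumulative percent of loci by level, log10(FPKM + 0.01), in the female (left) and male (right) library, for multi-exon intergenic loci, single-exon intergenic loci, spliced annotated noncoding RNA genes and annotated protein-coding genes. At 1 FPKM (dotted line) the share of multi-exon intergenic loci at or above that level is 3.51% in females and 35.3% in males.

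Within the multi-exon intergenic loci, those with more exons or models had higher male levels. The 92 loci with 3 or more exons had medians of 0.0240 FPKM in females and 0.940 FPKM in males, against 0.0164 FPKM in females and 0.604 FPKM in males for loci with 2 exons. Loci with 1 model had a male median of 0.402 FPKM, those with 2 models 1.04 FPKM and those with 3 models 1.28 FPKM. Exonic length moved with the number of models, with medians of 874 nt at 1 model and 2152 nt at 3 models, and its part in the result was not tested.

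Sex differences were measured as the log2 ratio of female over male level after adding 1 FPKM to each, which understates the difference at low loci. Of the 484 loci, 178 had at least 1 FPKM in 1 library. In that set, 7 loci were at least 2-fold higher in females and 146 were at least 2-fold higher in males, while 25 differed by less. Over all 14108 loci of the series at this level, 21.5% were at least 2-fold higher in females and 40.7% in males, and over the annotated genes among them 22.7% in females and 39.3% in males. The 178 loci had a median log2 ratio of −1.42, against −0.58 for all 14108. Of the 178, 161 passed the minimum through the male value alone. A locus at 1 FPKM in males and 0 in females lies exactly at the 2-fold threshold. The minimum treats both libraries alike. With female values this low, however, a locus that passes it through the male value mostly falls on the male side. The counts are a description and carry no weight beyond the levels above. The testis and accessory gland markers were higher in males as well, and their part in these differences was not tested.

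The same measure was available for related loci. Of 202 single-exon intergenic loci at this level, 3.96% were at least 2-fold higher in females and 81.2% in males, with a median of −1.26. Of 289 spliced annotated noncoding RNA genes, 11.1% were higher in females and 63% in males, with a median of −1.50. For the multi-exon intergenic loci these shares were 3.93% in females and 82% in males. In both intergenic sets most loci passed the minimum through the male value alone, 161 of 178 multi-exon and 182 of 202 single-exon ones. The closeness of their shares therefore carries no weight beyond the levels. The same holds for the shares by level given next. Those bins were set by the higher value, which was mostly the male one in both intergenic sets. Between 1 and 2 FPKM, only a locus with a low value in the other library can reach 2-fold. Among loci whose higher value lay between 1 and 2 FPKM, 74.4% of 90 multi-exon intergenic loci were at least 2-fold higher in males, against 78.8% of 118 single-exon intergenic loci, 44.8% of 58 spliced annotated noncoding RNA genes and 21.3% of 536 annotated protein-coding genes. Between 2 and 5 FPKM the shares in the same order were 92.3%, 82.5%, 68.3% and 51.1%. From 5 FPKM they were 82.6% of 23 multi-exon intergenic loci, 88.9% of 27 single-exon intergenic loci, 67.1% of 149 spliced annotated noncoding RNA genes and 37.6% of 10822 protein-coding genes, so the share did not go on rising with level in the multi-exon loci.

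**Figure D3:**
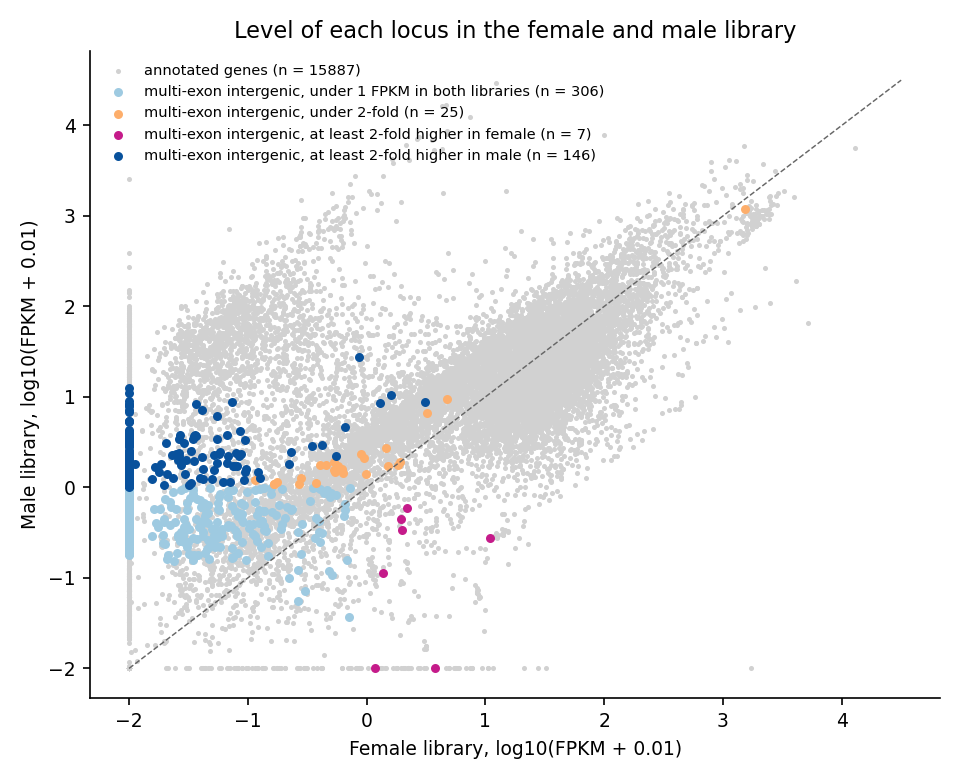
Level of each locus in the female (x axis) and male (y axis) library, as log10(FPKM + 0.01), for annotated genes (grey) and the 484 multi-exon intergenic loci (coloured by the 2-fold call). Most of the coloured points lie above the dashed line of equal levels, 198 of them at a listed 0 in females, and XLOC_003905 stands alone near the upper right.

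XLOC_003905 was far above every other multi-exon intergenic locus in both libraries. It lies on the plus strand of 3R (9139787 to 9144993) and had 1535 FPKM in females and 1193 FPKM in males, where the next locus of the group had 10.9 FPKM in females and 27.4 FPKM in males. Among all 19391 loci it ranked 78 in females and 92 in males. Its log2 ratio of 0.36 was under 2-fold, and became −0.61 when the libraries were scaled to equal ribosomal protein levels. The model has 2 exons of 92 nt (9139787 to 9139878) and 380 nt (9144614 to 9144993) and 1 intron of 4735 nt, and it sits 894 nt from CG44142 on the opposite strand.

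The newer BDGP6 annotation was read for what it places between the same flanking genes, CG44142 and CG8795. It lists 3 features there, in this order: the pseudogene CR46407 of 635 nt on the plus strand, the transposable element Doc{}1352 of 4721 nt on the minus strand, and the protein-coding gene CG45080 of 280 nt on the minus strand. Doc is a non-LTR retrotransposon family of flies. The intron of XLOC_003905 is within 20 nt of the length of this element. Coordinates of the builds were not joined, so whether the intron covers the element was not tested. Of 70 multi-exon intergenic loci with an intron of at least 300 nt and a transposable element between their flanking genes, 5 had an intron within 20 nt of the length of such an element, and XLOC_003905 was the only one of the 5 with more than 3 FPKM.

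The 7 loci at least 2-fold higher in females were low, at 1.18 to 10.9 FPKM in females and 0 to 0.577 FPKM in males. XLOC_000480 (2L, 18112551 to 18113201) led with 10.9 FPKM in females and 0.267 FPKM in males, a log2 ratio of 3.23. XLOC_003910 (3R, 9679951 to 9680306) had 3.73 FPKM in females and 6.51e-08 FPKM in males. Its span overlaps that of CG14362 on the opposite strand, a gene with 0.0880 FPKM in females and 24.3 FPKM in males. The use of strand in counting is not given in the sources used here, so fragments of XLOC_003910 and CG14362 may not have been separable, and its exonic length of 290 nt is short.

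Of this set, 3 loci lay on heterochromatic arms, the repeat-rich chromosome parts near centromeres. XLOC_003758 (3LHet, 1724680 to 1726584) had 1.995 FPKM in females and 0.332 FPKM in males. XLOC_005287 (3RHet, 195210 to 197266), with up to 4 exons, had 1.37 FPKM in females and 0.104 FPKM in males. XLOC_002398 (2RHet, 463921 to 468585) had 1.94 FPKM in females and 0.438 FPKM in males and lies 2199 nt from Yeti, which encodes a chromatin protein. The remaining ones were on the X. XLOC_005746 (X, 7573271 to 7574808) had 1.18 FPKM in females and was listed at 0 in males. It lies 378 nt beyond the 3′ end of ct, the gene of a homeodomain transcription factor, on the opposite strand. XLOC_005800 (X, 12551991 to 12552589) had 2.19 FPKM in females and 0.577 FPKM in males. It lies 123 nt beyond the 3′ end of the kinase gene CkIalpha, on the opposite strand. For XLOC_005800, XLOC_005746, XLOC_005287 and XLOC_002398 the log2 ratio was between 1.01 and 1.12 and dropped under the 2-fold threshold when ratios were centred.

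The loci at least 2-fold higher in males had a median of 2.17 FPKM in males (range 1.01 to 27.4), and 74 of the 146 were listed at 0 in females. A further 60 were above 0 and under 0.1 FPKM in females, so that 134 of 146 were under that level. At least 5 FPKM in males was listed for 19 of them. The highest was XLOC_001360 (2R, 12725136 to 12727196), with 0.848 FPKM in females and 27.4 FPKM in males and a log2 ratio of −3.94. Its nearest gene, 2097 nt away on the same strand, was the noncoding RNA gene CR43650 with 1.14 FPKM in females and 2.82 FPKM in males.

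The other loci with the lowest ratios were at or near 0 in females and at 8.06 to 12.4 FPKM in males. Of the 8 lowest ratios, 5 belonged to loci listed at 0 in females, which are given next. XLOC_003846 (3R, 3143757 to 3144325), with up to 4 exons in 458 nt, had 12.4 FPKM in males. XLOC_000447 (2L, 15822353 to 15823007) had 11.1 FPKM in males. XLOC_000124 (2L, 10886428 to 10887118) had 8.95 FPKM in males over only 213 nt of exon, a length at which FPKM is uncertain. XLOC_002792 (3L, 6297242 to 6298596) had 8.26 FPKM in males. XLOC_000402 (2L, 11660262 to 11664044), with 3714 nt of exon, was likewise listed at 0 in females and had 8.06 FPKM in males. The other two had traces in females: XLOC_005677 (X, 21454730 to 21455795) had 0.0637 FPKM in females and 8.86 FPKM in males, and XLOC_001663 (2R, 15963328 to 15964307) had 0.0269 FPKM in females and 8.42 FPKM in males.

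Few loci reached 1 FPKM in both libraries. Besides XLOC_003905, at least 1 FPKM in both libraries was listed for 9 loci, with 1.28 to 4.77 FPKM in females and 1.71 to 10.6 FPKM in males. XLOC_002781 (3L, 5642352 to 5645105) had 4.77 FPKM in females and 9.57 FPKM in males. It lies 163 nt beyond the 3′ end of Blimp-1, on the opposite strand. Blimp-1 encodes a zinc finger repressor and had 4.81 FPKM in females and 12.5 FPKM in males. XLOC_005723 (X, 5147341 to 5147665), 2095 nt from rg, the gene of a kinase anchoring protein, had 3.24 FPKM in females and 6.58 FPKM in males. XLOC_005337 (4, 201921 to 202530) had 3.12 FPKM in females and 8.84 FPKM in males and was the only chromosome 4 locus of the group with at least 1 FPKM in 1 library. Near-equal levels were found at 3 loci that were singled out after their values were seen. XLOC_002713 had 1.84 FPKM in females and 1.78 FPKM in males, XLOC_004432 had 1.90 FPKM in both, and XLOC_003965 had 1.52 FPKM in females and 1.71 FPKM in males. The direction of all 3 turned under another scaling of the libraries.

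By position, 41 of the 484 loci (8.47%) were on the X, where 15.1% of annotated genes lie, and 425 were on the arms of chromosomes 2 and 3. Single-exon intergenic loci were on the X in 12.4% of cases. Of the 16 X-linked loci that reached 1 FPKM in a library, 2 were at least 2-fold higher in females and 8 in males, and of 155 on the arms of chromosomes 2 and 3, 2 were higher in females and 135 in males. The median log2 ratio was −1.004 on the X and −1.47 on those arms. Annotated genes also had the lower share on the X, with 31% at least 2-fold higher in males on the X and 40.8% on those arms. With so few X-linked loci and 1 library per sex, the difference was not tested.

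Heterochromatic arms held 15 of the loci (3.10%, against 2.22% of single-exon intergenic loci, 3.13% of unannotated intronic loci and 0.655% of annotated genes), 9 of them on 3LHet and none on XHet or YHet. Of 6 with at least 1 FPKM in 1 library, 3 were at least 2-fold higher in females and 2 in males, where 22.4% of annotated genes on these arms were higher in females and 35.5% in males. Both male-side loci lay on the plus strand of 3LHet: XLOC_003759 (1745180 to 1758134) had 1.28 FPKM in females and 8.51 FPKM in males, and XLOC_003760 (1872470 to 1872926) had 1.61 FPKM in females and 10.6 FPKM in males. The sixth locus, XLOC_002402 (2RHet, 3135483 to 3136025), had 0.566 FPKM in females and 1.72 FPKM in males and lies 417 nt from uex, the gene of a magnesium transporter. Repeats are common on these arms, so fragments may have been shared between copies, and these values are uncertain.

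The loci were mostly set apart from known genes. The median gap to the nearest annotated gene was 3282 nt (quartiles 1113 and 7436 nt), against 3886 nt for single-exon intergenic loci, and 89 of 484 lay over 10 kb away. Within 1 kb of a gene were 104 loci, and the span of another 7 overlapped one. Orientation was mixed: 141 were head to head with their nearest gene on opposite strands, 115 tail to tail, 104 downstream on the same strand and 117 upstream on the same strand. Only 16 loci lay downstream on the same strand within 1 kb, and their medians were 0.0788 FPKM in females and 0.593 FPKM in males. Head to head within 1 kb were 33 loci with medians of 0.0568 FPKM in females and 0.670 FPKM in males.

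Direction was compared with that of the nearest annotated gene. Of 118 loci that were at least 2-fold apart and had a nearest gene with at least 1 FPKM in 1 library, 64 (54.2%) shared its direction, 12 had the opposite direction and for the rest the gene differed by less than 2-fold. For the 112 male-side loci, 63 nearest genes (56.2%) were at least 2-fold higher in males and 10 in females, where 39.3% of all 13111 annotated genes at this level were higher in males. A gene nearest to several loci was counted once for each locus, whereas each of the 13111 genes was counted once. The share was 55.6% of 252 nearest genes for loci under 1 FPKM in both libraries and 45.5% of 22 for loci under 2-fold. A share like that of the male-side loci was thus also found without a call. Distance made little difference to the share, at 53.3% of 30 loci within 1 kb, 54.8% of 42 between 1 and 5 kb and 54.3% of 46 beyond. Nearest genes of male-side single-exon intergenic loci were higher in males in 66.7% of 132 cases. Over the 140 pairs at this level the log2 ratios of locus and gene had r = 0.09 by Pearson and rho = 0.11 by Spearman. This is a description only, since both come from the same libraries. Most of these loci passed the minimum through the male value alone, so their ratios mainly follow their male level. These coefficients therefore cannot tell whether locus and gene share a sex difference.

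Single pairs differed. XLOC_003846, listed at 0 in females, lies 827 nt from CG10029, which had 0.0243 FPKM in females and 27.1 FPKM in males. XLOC_000124 lies 526 nt from CG14071, which had 0.0537 FPKM in females and 36.8 FPKM in males. XLOC_002583 lies 2398 nt from CG12521, which was listed at 0 in females and had 82.6 FPKM in males. In these pairs gene and locus were both on the male side. In contrast, XLOC_000480 was on the female side while CG15152, 1345 nt away, had 16.6 FPKM in females and 38.0 FPKM in males. XLOC_002503 was on the male side while CG10635, 1346 nt away, had 96.5 FPKM in females and 48.4 FPKM in males, just under 2-fold higher in females.

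**Figure D4:**
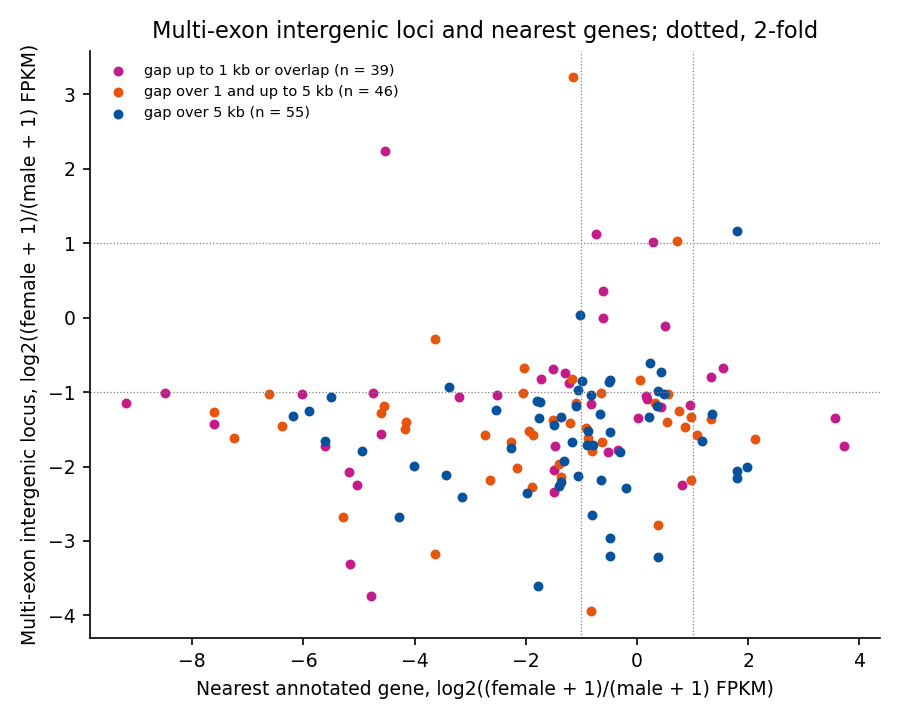
Log2 ratio of female over male level, after adding 1 FPKM, of 140 multi-exon intergenic loci (y axis) and of the nearest annotated gene (x axis), coloured by the gap between them. Most loci lie below −1 whatever the ratio of the gene, with a Pearson r of 0.09. Most passed the minimum through the male value alone, so r cannot tell whether locus and gene share a sex difference.

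Some of the loci lay next to each other. Of adjacent pairs, 31 were within 1 kb or overlapped, and 17 of the 19 overlapping pairs were on opposite strands. Of 16 adjacent pairs within 10 kb in which both loci had at least 1 FPKM in 1 library, both were at least 2-fold higher in males in 12, where 82% of the single loci at this level were, so nothing is read from the count. A group of 3 lay on 2R: XLOC_001662 (15945330 to 15946312, minus strand) was listed at 0 in females and had 6.77 FPKM in males. It lies inside the span of XLOC_001403 on the plus strand, with 0.0316 FPKM in females and 1.24 FPKM in males, and 88 nt from XLOC_001404, with 0.0249 FPKM in females and 1.97 FPKM in males. The closest annotated gene of XLOC_001662, the Toll family receptor gene 18w, was 52703 nt away. On 2L, XLOC_000520 had 0.0269 FPKM in females and 3.69 FPKM in males, and XLOC_000521, 371 nt away on the same strand, had 0.0174 FPKM in females and 1.74 FPKM in males. On 3L, XLOC_002791 (1.29 FPKM in males) and XLOC_002792 lay 390 nt apart on the same strand, and both were listed at 0 in females. Neighbouring models on 1 strand can be pieces of 1 transcript, which was not tested.

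The loci were then looked up in the BDGP6 annotation, which is newer than the one deposited. Because coordinates differ between the builds, a match was defined by gene order and length alone: a BDGP6 gene wholly between the same flanking genes, on the same strand, with an intron of exactly the same length. Of 484 loci, 77 (15.9%) had such a match, 67 to noncoding RNA genes and 10 to protein-coding genes. A gene on the right strand lay between the flanking genes for 256 loci, so 30.1% of those matched. Of the 37 matched loci with several introns, 14 matched in at least 2 introns and 3 in all of them, and the rest of the 77 matched in their only intron. Fly introns often share a length by coincidence, so matches on 1 short intron are less certain than those on several.

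Matched loci were the better expressed ones. Their medians were 0.0269 FPKM in females and 1.52 FPKM in males, against 0.0167 FPKM in females and 0.568 FPKM in males for the 407 unmatched loci. By the higher of the female and male value, 1 of 83 loci under 0.3 FPKM matched, 25 of 223 (11.2%) between 0.3 and 1 FPKM, 29 of 127 (22.8%) between 1 and 3 FPKM, and 22 of 51 (43.1%) from 3 FPKM. Loci with 2 exons matched in 12.5% of cases, those with 3 in 28.6% and those with 4 or more in 36.4%, where more introns also give more chances of a match. Of 51 matched loci with at least 1 FPKM in 1 library, 1 was at least 2-fold higher in females and 45 in males. Of 127 unmatched ones, 6 were higher in females and 101 in males. Over all 14108 loci of the series at this level, the shares were 21.5% in females and 40.7% in males. Most multi-exon intergenic loci passed the minimum through the male value alone, and matched ones had the higher male median. Nothing beyond the levels is therefore read from these counts.

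**Figure D5:**
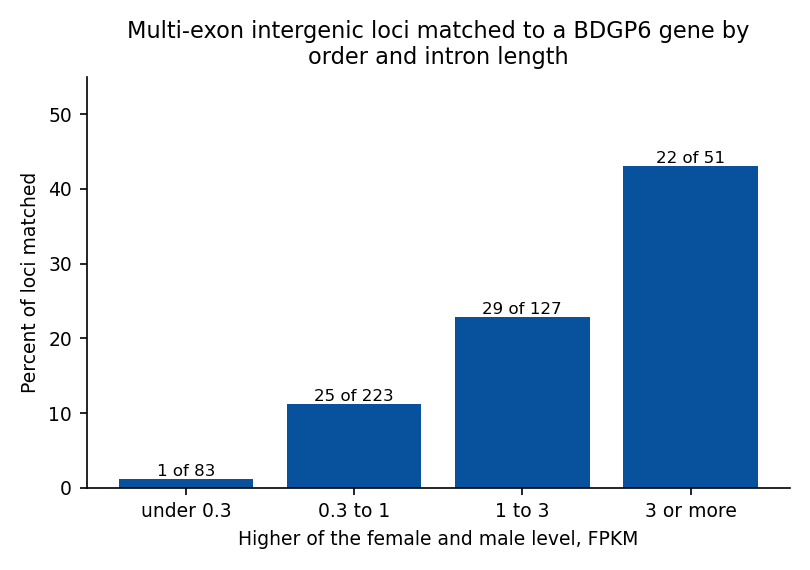
Percent of the multi-exon intergenic loci with a BDGP6 gene between the same flanking genes, on the same strand and with an intron of the same length, by the higher of the female and male level in FPKM. The share is 43.1% from 3 FPKM and 11.2% between 0.3 and 1 FPKM.

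Several of the loci described above were among the matches. XLOC_003846 matched lncRNA:CR46299 in 2 of its 3 introns, and XLOC_000447, XLOC_000124, XLOC_005677 and XLOC_002792 matched lncRNA:CR44601, lncRNA:CR44490, lncRNA:CR44711 and lncRNA:CR45114 in their single intron. XLOC_005337 matched lncRNA:CR46488 in both of its introns, and XLOC_002503 matched lncRNA:CR44515 in 2 of 4. Matches to protein-coding genes included XLOC_001663 with CG46443 in both introns, XLOC_001400 with CG44623 in 3 of 6 introns and the female-side XLOC_000480 with CG44476 in 1 of 2. Of the highest loci, XLOC_003905, XLOC_001360, XLOC_002781 and XLOC_003760 had no match.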

How the data were processed

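The authors deposited FPKM per locus and library and a transcript annotation. TopHat2 2.0.8, Cufflinks 2.0.2 and build BDGP5 are named in the submitters' processing notes, without roles. Strand use, filters and model assembly are not given in the sources used here. FPKM was used as deposited, and values were computed in Python 3.11.15, numpy 2.4.6, pandas 2.3.3, scipy 1.17.1 and matplotlib 3.10.9. Ratios are log2((female + 1)/(male + 1)), called at 2-fold with at least 1 FPKM in 1 library. The code for calls, nearest genes and intron matches was checked on simulated data. The simulated calls used loci well above the minimum in both libraries, so they did not cover the low levels of most loci described here. The fragment step was fitted on alternate single-transcript loci of at least 1000 nt of exon and checked on the rest, with a length offset of 90 nt. Nearest genes were taken by the gap between spans. The BDGP6 annotation (Ensembl release 115) served for gene order and lengths only. No genome sequence was used here. Loci and lists were chosen with earlier results of these data known. The text names the 8 highest loci per library, the 8 highest and 8 lowest ratios, the 3 leading loci by exons, models, exonic length and span, the heterochromatic loci with at least 1 FPKM, the 4 closest pairs and the nearest genes. The BDGP6 and transposable element comparisons were added after the data were seen. Other pseudocounts, minimum levels, scalings, fold thresholds and sets of loci were tried as alternatives.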

Additional observations from a re-analysis of the deposited data

How the results depend on the processing

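No paired analysis was possible because each sex had 1 library, and for the same reason no library could be left out. The shares over all loci of the series and over annotated genes were computed in the main setting only. The counts and shares below therefore cannot be set beside the series under the same setting. With a pseudocount of 5 FPKM, 1 of 178 loci was at least 2-fold higher in females and 18 in males, and the median log2 ratio was −0.44. The direction of the nearest gene was shared by 5 of 15 loci that could be compared, against 64 of 118 in the main setting. A pseudocount of 0.1 FPKM moved that median to −3.93. With no minimum the median was −0.63, and 286 loci in females and 483 in males were above 0. With at least 5 FPKM in 1 library, 23 loci remained, of which 1 was higher in females and 19 in males, and the median was −2.96. Direction was shared with the gene at 5 of 11 loci, and 2 loci in females and 22 in males reached that level. Where both libraries had to reach 1 FPKM, 10 loci remained, the counts were 0 in females and 3 in males, and the median was −0.72. Only 1 called locus then had a gene to compare, and it did not share direction. Equal sums of FPKM moved the male median level to 0.551 FPKM. Of 157 loci then at the minimum level, 7 were higher in females and 122 in males. Equal ribosomal protein medians moved the male median level to 0.919 FPKM. Of 236 loci then at the minimum level, 2 were higher in females and 214 in males, against 7 and 146 of 178 as deposited. Under the ribosomal protein scaling, direction was shared with the gene by 128 of 176 loci (72.7%), against 54.2% in the main setting. These scalings moved the median log2 ratio over all loci at the minimum level to −0.13 and −1.25, against −0.58 as deposited. Centring the ratios left 3 loci higher in females and a median of −1.59. At 4-fold the counts were 2 in females and 44 in males of 178 loci, and 11 of 35 loci shared direction. With every model spliced, 321 loci remained, of which 73 were higher in males and 83 reached 1 FPKM in males. Their male median level was 0.4996 FPKM, and 32 of 59 shared direction. Without loci within 1 kb of a gene, 4 were higher in females and 10 reached 1 FPKM there, and without heterochromatic arms 4 were higher in females. The last 3 settings keep fewer loci, and for the scalings and centring the cause was not tested. Leaving out the 64 loci that overlap another locus, added after the data were seen, kept all 8 main results within 1.5 times. Of 40 named loci, 4 changed the sign of their ratio under a scaling or centring, all under 2-fold as deposited: XLOC_003905, XLOC_002713, XLOC_003965 and XLOC_004432. The few female fragments limit what can be resolved: the median locus had about 1.34 fragments in females and 54.1 in males. The fitted value of 1 fragment on 1 kb was similar in both libraries, 0.0129 FPKM in females and 0.0124 FPKM in males.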
